A study of Mus musculus with 11 samples.

Results

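Epididymal fat of mice with obesity-related alcohol-induced acute pancreatitis (OA-AP) was compared with epididymal fat of control mice across all genes. The members of the comparison were the 6 adipose libraries of the 11 in the series, 3 control and 3 OA-AP, chosen by their tissue label. All animals were wild type male C57BL/6 mice (C57BL/6J in the study's methods) aged 16 weeks. The control mice had eaten a diet with 10 kcal% fat for 12 weeks and received 2 intraperitoneal injections of saline 1 h apart. The OA-AP mice had eaten a diet with 60 kcal% fat for 12 weeks and received 2 intraperitoneal injections of ethanol, 2 g/kg each, 1 h apart. Tissue was taken 12 h after the first injection. Diet, ethanol and pancreatitis differ together between the groups and cannot be told apart. Each value is a whole-number count of reads per gene, and levels are in CPM, which divides each count by its library's size after trimmed mean of M values (TMM) scaling. Values in a group are given in the order of replicates 1, 2 and 3, and SE is the standard error of a log2 fold change. The labels do not name the animals, so p-values measure the spread between these libraries, which may be technical.

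White fat stores triglyceride in adipocytes, which take up fatty acids, make them from glucose under insulin, and release them by lipolysis. Between the adipocytes lie blood vessels, fibroblast progenitors, a mesothelial cover and leukocytes, chiefly macrophages. Adipocytes and these cells secrete adipokines, chemokines and acute phase proteins, and in acute pancreatitis visceral fat is a known site of injury and inflammation. In bulk tissue, fewer cells of a type and less RNA per cell cannot be told apart, and this holds for every level below.

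The libraries held 20825177 to 27928097 counts. Correlations of log2 CPM were 0.974 to 0.989 within the groups and 0.931 to 0.946 between them, and the first principal component, with 69.5% of the variance, separated the groups. The adipocyte genes Adipoq (adiponectin) and Fabp4 (a fatty acid binding protein) were high in all 6 libraries: Adipoq was at 2971, 3137 and 3752 CPM in control and 2979.7, 2525 and 2709.9 CPM in OA-AP, and Fabp4 at 16250.0, 16994 and 15978 CPM in control and 19234, 17002 and 20052 CPM in OA-AP. Genes of epididymis, vas deferens and testis were nearly absent, with 1 of 26 listed genes passing the filter on low counts.

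A pair of libraries stood apart from the rest. Control replicate 2 held 257438 counts of a 47-gene list of acinar secretory genes, 1.14% of its total, against 205 to 402 counts in each other adipose library. It counted 44 of the 47 genes, and the genes ranked broadly as in the control pancreas libraries (Spearman rho = 0.80 across genes, which are not independent replicates). Single shares departed in both directions. Of the acinar counts, Reg2 took 2.29% in control replicate 2 against 0.029% and 0.019% in the control pancreas libraries, and Reg3b 0.785% against 0.0052% and 0.0042%. Amy2b took 0.069% against 1.88% and 1.82%. Ctrb1 (chymotrypsinogen) had 34530 counts there and 1 to 24 counts in each other adipose library. Control replicate 2 was also the highest control for 41 of 41 interferon-stimulated genes, 16 of 16 B and plasma cell markers, 21 of 21 MHC class II and antigen presentation genes and 17 of 18 T and NK cell markers. The median gap to the other controls was 1.26 for the interferon-stimulated genes and 1.43 for the B and plasma cell markers on the log2(CPM + 1) scale. OA-AP replicate 2 was the highest OA-AP library for 18 of 24 acute phase genes and 18 of 23 glucocorticoid response genes. It was the lowest for 11 of 13 genes of a list of neutrophil-recruiting chemokines, colony-stimulating factors and their receptors. The same held for 34 of 34 ribosome biogenesis genes and 73 of 76 cytosolic ribosomal protein genes. Results that rest on these libraries are given with and without them, and the part that either plays in a result was otherwise not tested.

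**Figure D1:**
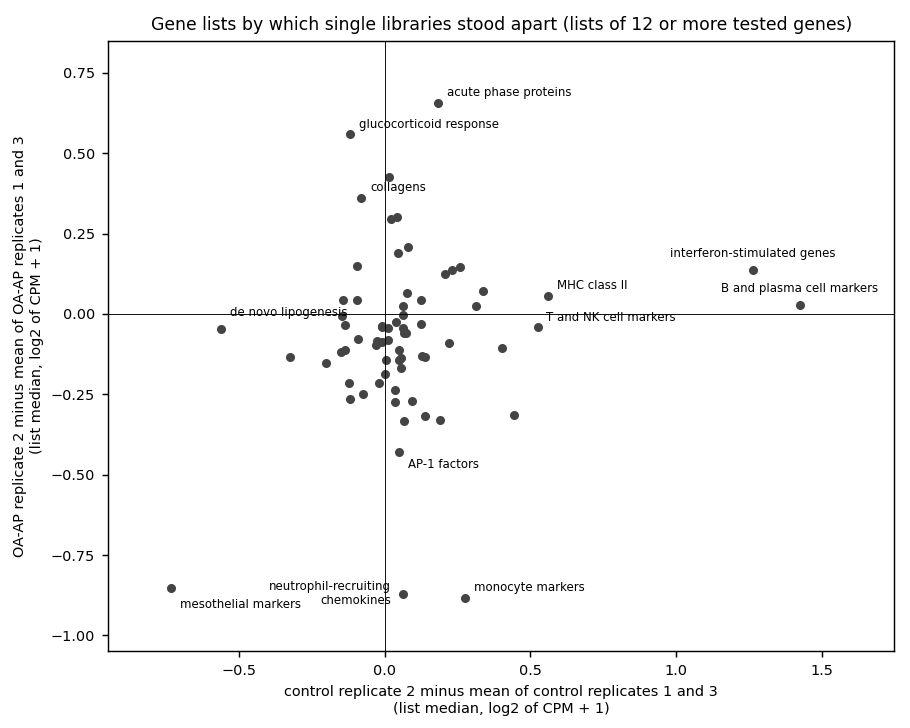
Position of control replicate 2 (horizontal axis, its median difference from the other control libraries) and of OA-AP replicate 2 (vertical axis, its median difference from the other OA-AP libraries) for each gene list, both on the log2(CPM + 1) scale, with 1 point per list of 12 or more tested genes. Interferon-stimulated genes and B and plasma cell markers lie far to the right, at 1.26 and 1.43, and acute phase genes lie at 0.66 on the vertical axis.

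The overall shift was broad. Of 15839 genes that passed the filter on low counts, 3981 were differentially expressed genes (DEGs: Benjamini-Hochberg adjusted p below 0.05 in edgeR's quasi-likelihood test and a fold change of at least 1.5), 1915 upregulated and 2066 downregulated. These are 12.1% and 13% of the tested genes, the background against which counts of listed genes are read, and the median log2 fold change over all tested genes was −0.01. The increases reached further than the decreases: 80 upregulated and 16 downregulated DEGs changed at least 16-fold. When CPM were scaled by library totals only, the median of all genes moved to −0.17 and 32.1% of the DEGs were upregulated rather than 48.1%. The 2 groups did not overlap in 52.4% of tested genes, and in 3960 of the DEGs. Where a list below had no DEG in a direction in edgeR, as in 24 list directions, DESeq2 called 6 genes in all and 0 to 11 genes had an unadjusted p below 0.05.

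**Figure D2:**
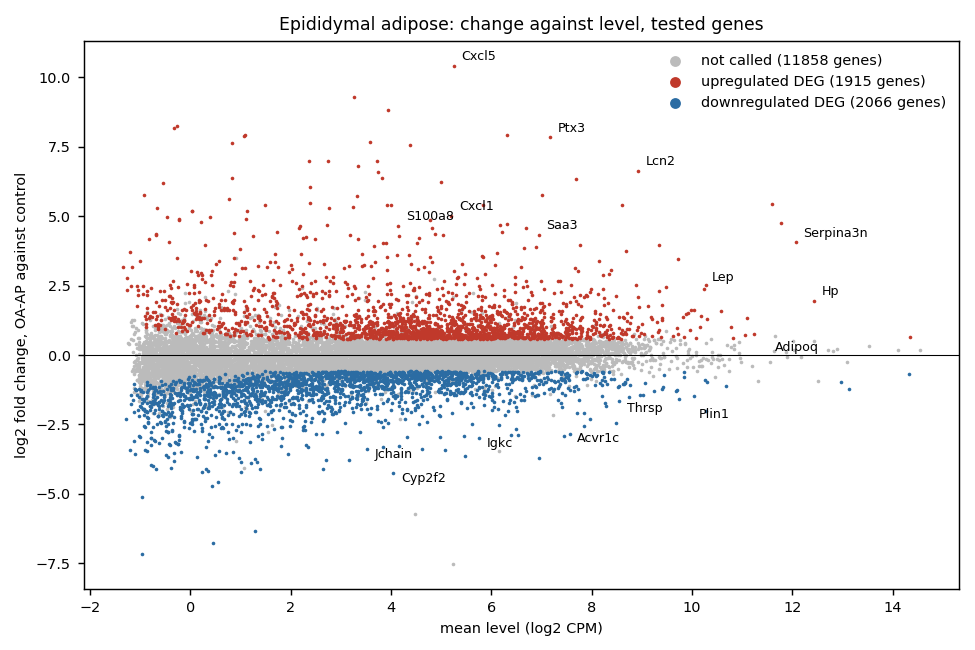
Log2 fold change, OA-AP over control (vertical axis), against mean level in log2 CPM (horizontal axis) for the 15839 tested genes, with upregulated and downregulated DEGs coloured. The 1915 upregulated DEGs reach above a log2 fold change of 10, and the 2066 downregulated DEGs reach less far from 0.

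The largest increases among well expressed genes were in chemokines, acute phase proteins and growth factors. Cxcl5, a neutrophil-attracting chemokine (chromosome 5, 90759360 to 90761624, plus strand, GRCm38), was at 0, 0.0424 and 0.102 CPM in control and 85.6, 46.8 and 95.6 CPM in OA-AP (log2 fold change 10.43, SE 0.55, adjusted p = 0.00022), and the log2 fold change was 11.55 without control replicate 3. Ptx3, a pentraxin that binds microbes and complement, was at 1.29, 1.53 and 0.953 CPM in control and 167, 481 and 211 CPM in OA-AP (log2 fold change 7.84, SE 0.55, adjusted p = 0.00041), and the log2 fold change was 7.24 without OA-AP replicate 2. Elfn1, best known as a synaptic membrane protein, was at 0.148, 0.212 and 0.238 CPM in control and 31.5, 15.5 and 31.8 CPM in OA-AP (log2 fold change 7.001, SE 0.41, adjusted p = 0.00023). Every OA-AP library lay above every control for each of these genes, which was a condition for naming them. The largest decreases included a P450, a lipoxygenase and a collagen. Cyp2f2, a cytochrome P450, was at 50.4, 16.1 and 26.5 CPM in control and 2.54, 0.721 and 1.62 CPM in OA-AP (log2 fold change −4.26, SE 0.58, adjusted p = 0.0027). Alox15, a lipoxygenase found in eosinophils and peritoneal macrophages, was at 22.6, 26.9 and 27.4 CPM in control and 3.21, 2.64 and 1.92 CPM in OA-AP (log2 fold change −3.30, SE 0.20, adjusted p = 0.00022). Col6a6, a chain of collagen VI, was at 33.8, 28.6 and 33.2 CPM in control and 2.38, 5.14 and 2.32 CPM in OA-AP (log2 fold change −3.27, SE 0.31, adjusted p = 0.00079). Here every OA-AP library lay below every control, again a condition for naming these genes.

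**Figure D3:**
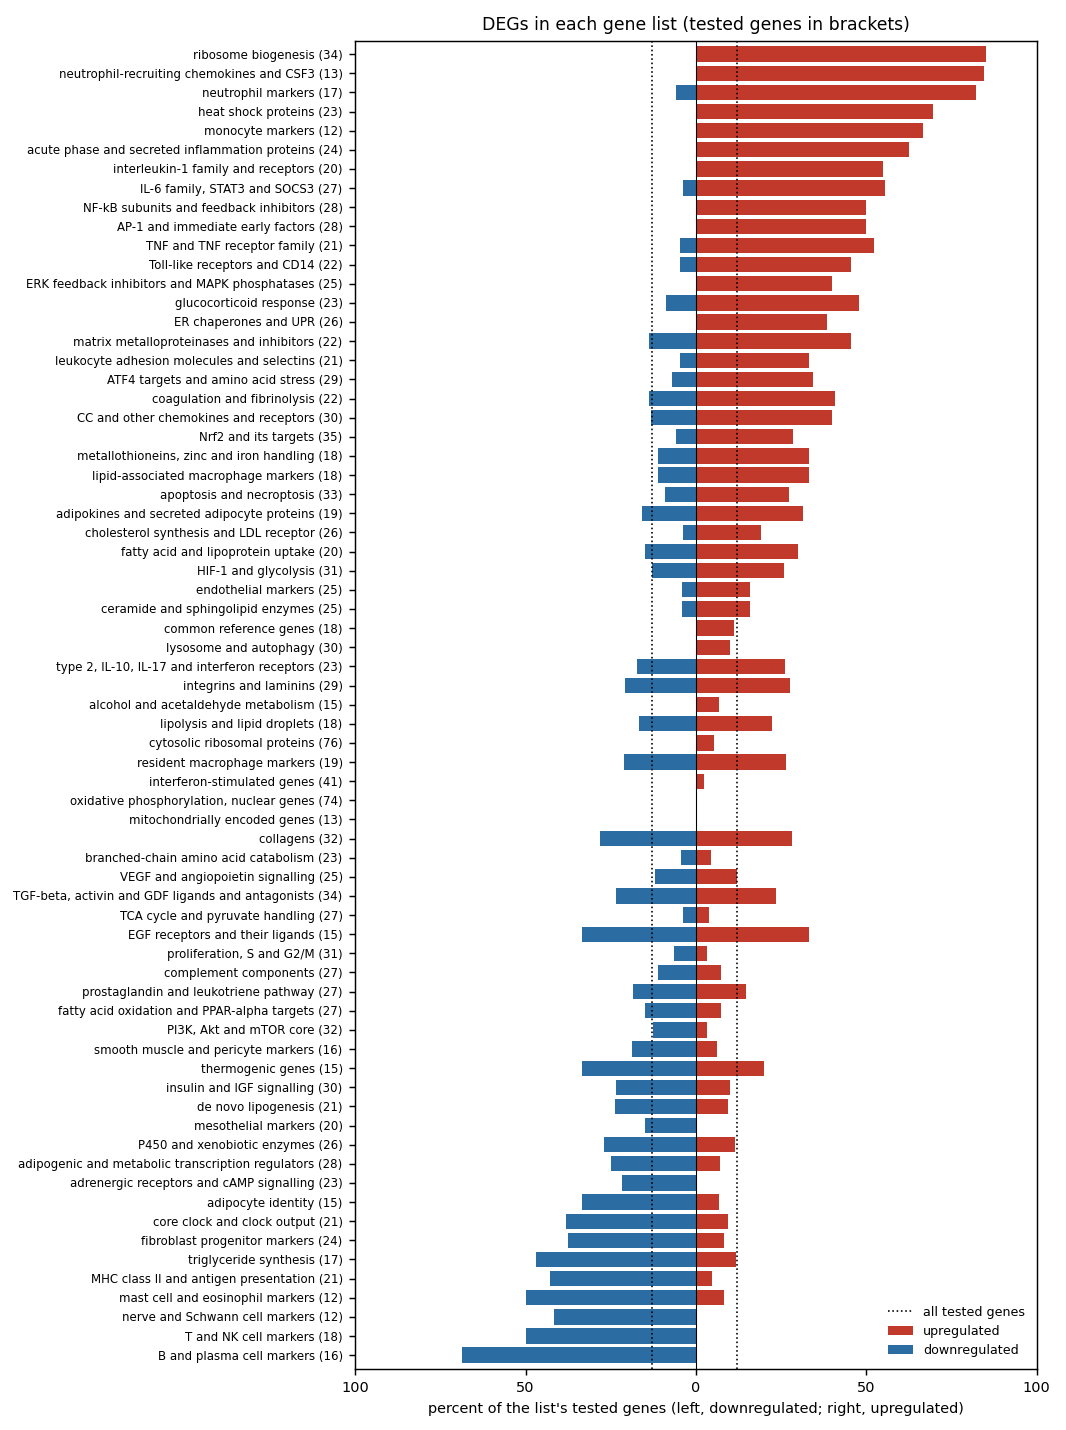
Share of tested genes in each list that were upregulated (right) or downregulated (left) DEGs, in percent, with the background over all tested genes (12.1% and 13%) drawn as dotted lines. Lists of neutrophil genes, ribosome biogenesis and heat shock proteins extend far to the right, and B cell, T and NK cell and triglyceride synthesis lists to the left.

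Most genes that draw neutrophils into tissue rose. Of 13 tested genes of the list of neutrophil-recruiting chemokines, colony-stimulating factors and their receptors, 11 rose and none fell, with a median log2 fold change of 3.26. The promoters of Cxcl1, Cxcl2 and Cxcl3, ligands of the receptor CXCR2, are shown because they hold the letters marked below. They belong to genes that rose steeply and lie in 1 region, and not every such gene is shown. They are the RefSeq windows from 250 bases before to 50 bases after the gene start on GRCm38.p6, all on the plus strand, at chr5:90890995-90891294, chr5:90903649-90903948 and chr5:90785851-90786150. Capitals mark a form of the NF-kB motif, GGG, any pair of bases and then TTTCC, on either strand:
Cxcl1: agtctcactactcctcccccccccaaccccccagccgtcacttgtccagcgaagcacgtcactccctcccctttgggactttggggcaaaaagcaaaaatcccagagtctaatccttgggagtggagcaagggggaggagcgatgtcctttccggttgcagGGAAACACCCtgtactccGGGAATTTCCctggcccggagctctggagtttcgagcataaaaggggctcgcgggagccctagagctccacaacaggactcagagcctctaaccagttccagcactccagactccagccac
Cxcl2: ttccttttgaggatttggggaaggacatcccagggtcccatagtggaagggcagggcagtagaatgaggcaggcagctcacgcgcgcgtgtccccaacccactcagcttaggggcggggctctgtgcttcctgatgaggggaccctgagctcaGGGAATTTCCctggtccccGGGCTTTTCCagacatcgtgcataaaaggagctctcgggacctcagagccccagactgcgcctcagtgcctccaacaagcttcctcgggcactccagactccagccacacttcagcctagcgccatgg
Cxcl3: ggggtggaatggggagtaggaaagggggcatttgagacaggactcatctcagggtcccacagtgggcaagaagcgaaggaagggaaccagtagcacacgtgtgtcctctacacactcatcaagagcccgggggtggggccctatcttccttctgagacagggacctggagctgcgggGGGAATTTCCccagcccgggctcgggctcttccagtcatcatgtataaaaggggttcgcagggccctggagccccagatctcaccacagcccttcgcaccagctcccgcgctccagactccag
These letters occurred in 1.747% of 14024 promoters of tested genes, and in 4 of 10 promoters matched to this list, among them those shown. The 10 promoters cover 10 of the 13 tested genes, and the difference between the shares was not tested. The table held a promoter for 10971 of 15829 tested symbols, and because of this partial coverage a comparison of upregulated with downregulated genes was treated as void. A match is a description and not evidence of binding.

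Cxcl1 was at 1.85, 2.29 and 2.48 CPM in control and 85.2, 19.5 and 110.2 CPM in OA-AP (log2 fold change 5.02, SE 0.68, adjusted p = 0.0027), and Cxcl2 at 0.480, 1.14 and 0.511 CPM in control and 21.6, 11.3 and 56.1 CPM in OA-AP (log2 fold change 5.40, SE 0.74, adjusted p = 0.0028). Without OA-AP replicate 3, the log2 fold change of Cxcl2 was 4.55. Cxcl3 was at 0.111, 0.0424 and 0.0340 CPM in control and 29.4, 13.3 and 50.4 CPM in OA-AP (log2 fold change 8.84, SE 0.78, adjusted p = 0.00074), and the log2 fold change was 9.49 without control replicate 1. OA-AP replicate 2 was the lowest of its group for all 3 ligands and still lay above every control. Csf3, the growth factor that releases neutrophils from bone marrow, was low but higher in each OA-AP library, at 0.111, 0.0847 and 0.0340 CPM in control and 1.76, 3.27 and 2.58 CPM in OA-AP (log2 fold change 4.98, SE 0.45, adjusted p = 0.00062). The receptor Cxcr2 was at 0.111, 0.297 and 0.579 CPM in control and 15.5, 9.90 and 14.5 CPM in OA-AP (log2 fold change 5.29, SE 0.45, adjusted p = 0.00056), and the log2 fold change was 6.04 without control replicate 3. The genes of this chemokine group adjoin EGF-family ligand genes. Over 389 kb of chromosome 5 (90759360 to 91148432, GRCm38), a span chosen after its values were seen, 9 genes were tested and 7 rose: Cxcl5, Ppbp, Cxcl3, Cxcl1, Cxcl2, Ereg and Areg.

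Markers of neutrophils themselves rose too. Of 17 tested neutrophil markers 14 rose and 1 fell, with a median log2 fold change of 4.31. Their summed counts took 0.00449%, 0.00609% and 0.00576% of the control libraries and 0.0300%, 0.0291% and 0.0319% of the OA-AP libraries. The groups did not overlap, and the two-sided exact permutation p was 0.1, the smallest that 3 against 3 allows (0.173 after adjustment over 19 marker lists). S100a8, a subunit of calprotectin, was at 0.849, 1.23 and 1.97 CPM in control and 31.0, 35.0 and 36.7 CPM in OA-AP (log2 fold change 4.65, SE 0.28, adjusted p = 0.00022). Clec4d, a C-type lectin of myeloid cells, was at 2.03, 2.88 and 1.94 CPM in control and 23.2, 20.6 and 26.3 CPM in OA-AP (log2 fold change 3.36, SE 0.19, adjusted p = 0.00019), and Mmp8, neutrophil collagenase, at 0.332, 0.0847 and 0.374 CPM in control and 25.4, 35.3 and 19.1 CPM in OA-AP (log2 fold change 6.58, SE 0.42, adjusted p = 0.00027). Elane, the neutrophil elastase made in immature cells, was the marker that fell (log2 fold change −1.41, SE 0.44, adjusted p = 0.042), a call lost on leaving out any single control library or OA-AP replicate 3, and the log2 fold change was −2.02 without OA-AP replicate 1. Among leukocyte adhesion molecules, 7 of 21 rose and 1 fell. Selp (P-selectin), which lets leukocytes roll on endothelium, was at 8.30, 9.91 and 9.33 CPM in control and 77.3, 36.6 and 59.4 CPM in OA-AP (log2 fold change 2.65, SE 0.27, adjusted p = 0.0011). Sele (E-selectin) was at 0.185, 0.424 and 0.477 CPM in control and 16.2, 1.78 and 8.38 CPM in OA-AP (log2 fold change 4.58, SE 0.87, adjusted p = 0.0086), and the log2 fold change was 3.80 without OA-AP replicate 1.

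**Figure D4:**
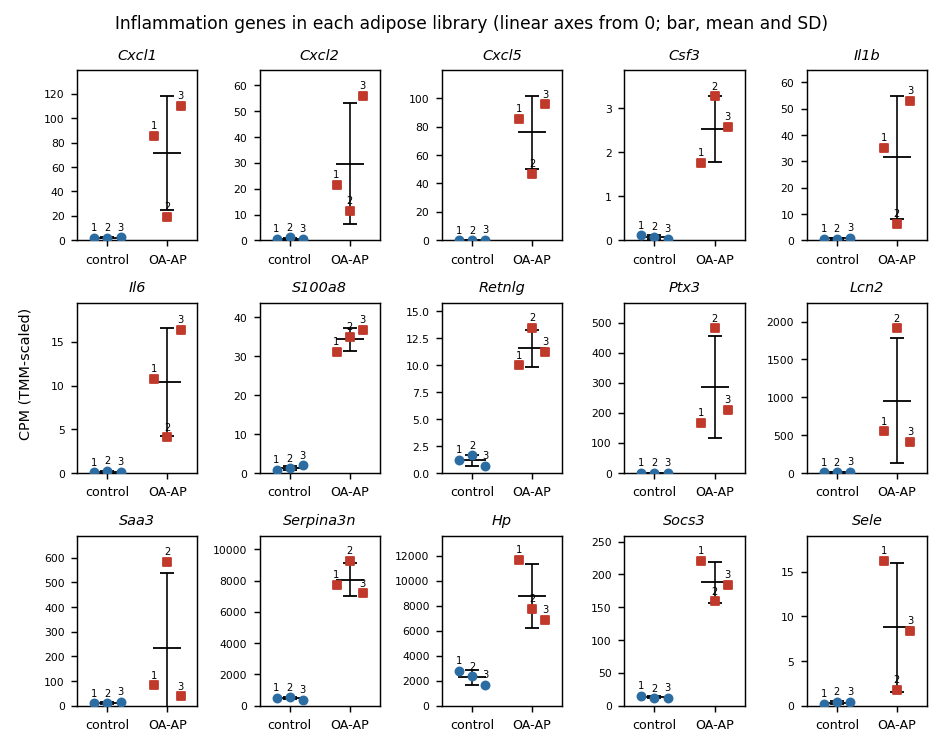
Levels in CPM of 15 inflammation genes on linear axes from 0, with 1 numbered point per library, control circles beside OA-AP squares, and bars for each group's mean and SD (n = 3). OA-AP points lie above control points for each gene, and OA-AP replicate 2 is low for Cxcl1, Cxcl2 and Il1b and high for Ptx3, Lcn2 and Saa3.

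Most monocyte markers rose, while macrophage markers moved in both directions. In the list of CC and other chemokines and receptors 12 of 30 rose and 4 fell. Of 12 monocyte markers 8 rose and none fell, with a median log2 fold change of 1.96. Ccl2, the main monocyte chemokine, was at 5.98, 8.26 and 5.41 CPM in control and 164, 46.5 and 212 CPM in OA-AP (log2 fold change 4.43, SE 0.58, adjusted p = 0.0025). Chil3, a chitinase-like protein of myeloid cells, was at 1.33, 3.01 and 3.57 CPM in control and 171, 49.4 and 115 CPM in OA-AP (log2 fold change 5.40, SE 0.58, adjusted p = 0.0014). Ly6c2, which defines inflammatory monocytes, overlapped between the groups at 2.84, 8.26 and 2.48 CPM in control and 24.5, 5.91 and 22.8 CPM in OA-AP and did not pass the test (log2 fold change 1.98, adjusted p = 0.055), but it passed without control replicate 2 (2.73, adjusted p = 0.028) and without OA-AP replicate 2 (2.40, adjusted p = 0.016). Of 19 resident macrophage markers, 5 rose and 4 fell. Mrc1 (the mannose receptor) rose by 1.21 (SE 0.22, adjusted p = 0.0069) and Cd163 (a haemoglobin scavenger receptor) by 0.95 (SE 0.19, adjusted p = 0.0082). Timd4, a phosphatidylserine receptor of resident cells, fell by 1.88 (SE 0.41, adjusted p = 0.012) and Csf1r, the receptor for macrophage growth factor, by 0.81 (SE 0.18, adjusted p = 0.013). Adgre1 (F4/80) did not pass the test, at 35.1, 49.6 and 34.5 CPM in control and 16.8, 39.4 and 31.8 CPM in OA-AP. Of 18 lipid-associated macrophage markers, 6 rose and 2 fell. Spp1 (osteopontin) was at 0.812, 1.23 and 0.545 CPM in control and 89.3, 31.7 and 69.3 CPM in OA-AP (log2 fold change 6.22, SE 0.51, adjusted p = 0.00061), whereas Trem2, which defines those macrophages, was at 10.8, 7.37 and 8.37 CPM in control and 8.45, 8.46 and 7.12 CPM in OA-AP and did not pass the test.

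Many signalling genes of innate immunity rose and few fell. Upregulated DEGs made up 11 of 20 interleukin-1 family genes, 15 of 27 IL-6 family genes, 11 of 21 TNF family genes, 14 of 28 NF-kB pathway genes and 10 of 22 Toll-like receptor genes. Downregulated DEGs numbered 0, 1, 1, 0 and 1 in the same order. Il1r2, the decoy receptor for interleukin-1 (chromosome 1, 40074079 to 40125231, plus strand), varied little between libraries, at 0.369, 0.339 and 0.306 CPM in control and 29.9, 29.4 and 25.4 CPM in OA-AP (log2 fold change 6.36, SE 0.16, adjusted p = 1.3e-05). The signalling receptor Il1r1 was at 62.1, 44.0 and 41.9 CPM in control and 522, 552 and 479.9 CPM in OA-AP (log2 fold change 3.39, SE 0.18, adjusted p = 0.00018). The ligand Il1b was lower in OA-AP replicate 2 than in the other OA-AP libraries, at 0.554, 0.678 and 0.987 CPM in control and 35.1, 6.35 and 52.9 CPM in OA-AP (log2 fold change 5.39, SE 0.84, adjusted p = 0.0044), and the log2 fold change was 4.79 without OA-AP replicate 3. Il6 was at 0.0738, 0.254 and 0.136 CPM in control and 10.8, 4.09 and 16.4 CPM in OA-AP (log2 fold change 6.06, SE 0.69, adjusted p = 0.0016), and Osmr, the oncostatin M receptor, at 85.8, 71.6 and 70.6 CPM in control and 361, 270.2 and 350.0 CPM in OA-AP (log2 fold change 2.11, SE 0.15, adjusted p = 0.00035). Socs3, a feedback inhibitor of this pathway, was at 14.6, 11.4 and 12.4 CPM in control and 221, 159 and 184 CPM in OA-AP (log2 fold change 3.87, SE 0.17, adjusted p = 0.00018). Tnf itself was low in both groups, at 0.554, 0.339 and 0.443 CPM in control and 1.503, 1.63 and 2.12 CPM in OA-AP (log2 fold change 1.96, SE 0.29, adjusted p = 0.003). Il4ra, shared by the IL-4 and IL-13 receptors, was at 63.4, 84.1 and 68.3 CPM in control and 535, 438 and 604 CPM in OA-AP (log2 fold change 2.87, SE 0.17, adjusted p = 0.00022), and Nlrp3, the inflammasome sensor, at 0.959, 1.27 and 1.09 CPM in control and 5.49, 2.21 and 8.08 CPM in OA-AP (log2 fold change 2.25, SE 0.46, adjusted p = 0.01). The NF-kB subunit genes Nfkb1 and Rela did not reach a fold change of 1.5 (0.50 and 0.35 on the log2 scale), although Nfkb1 did so without OA-AP replicate 2 (0.60, adjusted p = 0.0022). Nfkb2, another subunit gene, rose by 1.01 without control replicate 2 (adjusted p = 0.0104) and by 1.16 without OA-AP replicate 2 (adjusted p = 0.00026). The inhibitors Zc3h12a and Tnip1 rose by 1.65 and 1.53.

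Most genes of acute phase and secreted inflammation proteins rose. Hp and Serpina3n ranked 6 and 8 by share of counts in OA-AP fat, against 24 and 180 in control fat. Of 24 tested genes 15 rose and none fell, with a median log2 fold change of 2.42. Serpina3n, a serine protease inhibitor, was at 522, 529 and 400.4 CPM in control and 7738, 9276 and 7193 CPM in OA-AP (log2 fold change 4.06, SE 0.21, adjusted p = 0.00018). Hp (haptoglobin), which adipocytes also express, was at 2797, 2349 and 1664 CPM in control and 11664, 7734 and 6860.2 CPM in OA-AP (log2 fold change 1.95, SE 0.28, adjusted p = 0.0028). Lcn2 (lipocalin 2), which withholds iron from bacteria, was at 9.48, 7.4996 and 11.6 CPM in control and 552, 1910.5 and 409.6 CPM in OA-AP (log2 fold change 6.65, SE 0.73, adjusted p = 0.0015), and Saa3 (serum amyloid A3) at 9.45, 9.66 and 15.6 CPM in control and 82.3, 583 and 38.3 CPM in OA-AP (log2 fold change 4.34, SE 1.06, adjusted p = 0.02). Both were highest in OA-AP replicate 2: without it the log2 fold change was 5.66 for Lcn2 and 2.38 for Saa3 (adjusted p = 0.0063). The Saa3 call was lost on leaving out any single control library. In a 42.3 kb region of chromosome 7 (46711998 to 46754313), 4 of 4 tested Saa genes rose. In the Serpina3 region of chromosome 12 (104214544 to 104414329), 6 of 8 tested genes rose and 1 fell. Both regions were chosen after their values were seen, and reads of these near-identical copies may be split between genes, so single values there are uncertain.

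Lymphocyte and antigen presentation genes fell, in smaller numbers without control replicate 2. Of 16 B and plasma cell markers 11 fell and none rose, and of 18 T and NK cell markers 9 fell and none rose. Without control replicate 2 the counts were 9 of 15 and 5 of 18, and the medians moved from −2.69 to −1.99 and from −1.20 to −0.95. Without OA-AP replicate 2, 7 B and plasma cell markers fell. Cd2, an adhesion receptor of T and NK cells, was at 3.14, 7.33 and 3.03 CPM in control and 0.674, 0.577 and 0.606 CPM in OA-AP (log2 fold change −2.85, SE 0.43, adjusted p = 0.0032), and the log2 fold change was −2.30 (adjusted p = 0.0034) without control replicate 2. Igkc, the kappa light chain, was at 55.9, 193 and 40.3 CPM in control and 8.09, 19.4 and 8.38 CPM in OA-AP (log2 fold change −3.00, SE 0.69, adjusted p = 0.017), and its log2 fold change was −1.99 without control replicate 2. The Igkc call was lost without OA-AP replicate 3 and without the filter on low counts. Its control replicate 2 value was the highest of the 6. Of 21 MHC class II and antigen presentation genes, 9 fell and 1 rose, and 6 fell without control replicate 2. H2-Ab1, a class II beta chain, was at 201, 279 and 195 CPM in control and 67.7, 132 and 108 CPM in OA-AP (log2 fold change −1.13, SE 0.26, adjusted p = 0.016). Of 12 mast cell and eosinophil markers 6 fell and 1 rose. The gene that rose was Hdc, which neutrophils also express. Mcpt4, a mast cell chymase, was at 9.30, 12.2 and 10.5 CPM in control and 4.20, 3.89 and 3.23 CPM in OA-AP (log2 fold change −1.49, SE 0.17, adjusted p = 0.0014). The interferon-stimulated genes depended on control replicate 2: 1 of 41 rose with all libraries, Ifi204, and 11 without control replicate 2, as the median log2 fold change went from −0.06 to 0.58. Ifit1 was at 10.3, 36.5 and 7.45 CPM in control and 18.6, 23.3 and 25.3 CPM in OA-AP (log2 fold change 0.32, SE 0.57, adjusted p = 0.69), and without control replicate 2 its log2 fold change was 1.35 (adjusted p = 0.0081).

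Adipocyte identity genes fell in part, among them genes of the lipid droplet and of activin signalling. Of 15 tested genes 5 fell and 1 rose, with a median log2 fold change of −0.39. Without OA-AP replicate 2, 3 fell and the median was −0.21. Acvr1c, an activin-type receptor of adipocytes (chromosome 2, 58267453 to 58357895, minus strand), was at 292, 318 and 384 CPM in control and 55.9, 31.3 and 51.8 CPM in OA-AP (log2 fold change −2.84, SE 0.24, adjusted p = 0.00056). Plin1 (perilipin 1), which coats the lipid droplet, was at 1658, 1472 and 1478 CPM in control and 609, 368 and 683 CPM in OA-AP (log2 fold change −1.47, SE 0.23, adjusted p = 0.0038). Adipoq did not pass the test (−0.26, adjusted p = 0.22), nor did Pparg, the master factor of adipocytes, reach the fold threshold (−0.39, adjusted p = 0.018). Cebpa, its partner, was at 909, 798 and 874 CPM in control and 379, 248 and 423 CPM in OA-AP (log2 fold change −1.30, SE 0.20, adjusted p = 0.0037). Lep (leptin) was at 485, 447 and 232 CPM in control and 787, 4082 and 1194 CPM in OA-AP (log2 fold change 2.38, SE 0.66, adjusted p = 0.03). Its rise rested on the library set: without OA-AP replicate 2 the log2 fold change was 1.36 (adjusted p = 0.028), and the call was lost on leaving out any single control library. Retnla, a resistin-like protein of macrophages and adipose tissue, was at 286, 416 and 310.2 CPM in control and 66.9, 77.1 and 97.0 CPM in OA-AP (log2 fold change −2.07, SE 0.20, adjusted p = 0.00072). Angptl4, an inhibitor of lipoprotein lipase, was at 486, 603 and 418 CPM in control and 1199.9, 1555 and 1184 CPM in OA-AP (log2 fold change 1.39, SE 0.19, adjusted p = 0.0022), and Inhbb, an activin subunit, at 41.6, 48.6 and 38.1 CPM in control and 142, 188 and 174 CPM in OA-AP (log2 fold change 1.98, SE 0.14, adjusted p = 0.00035).

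Many of the enzymes that build triglyceride fell. Of 17 tested genes 8 fell and 2 rose, with a median log2 fold change of −0.65. Agpat2, which makes phosphatidic acid, was at 362, 194 and 213 CPM in control and 101, 64.9 and 64.8 CPM in OA-AP (log2 fold change −1.74, SE 0.29, adjusted p = 0.0054), and Dgat1, which adds the last fatty acid, at 341, 255 and 381 CPM in control and 126, 63.7 and 128 CPM in OA-AP (log2 fold change −1.62, SE 0.29, adjusted p = 0.007). The de novo lipogenesis list was mixed, 5 of 21 down and 2 up. Pnpla3 was at 517, 244 and 167 CPM in control and 28.4, 64.4 and 29.0 CPM in OA-AP (log2 fold change −2.93, SE 0.53, adjusted p = 0.0072), and the log2 fold change was −2.32 without control replicate 1. Thrsp, a lipogenic factor, was at 806, 438 and 449.9 CPM in control and 195, 221 and 127 CPM in OA-AP (log2 fold change −1.64, SE 0.31, adjusted p = 0.0079). Fasn (fatty acid synthase) was at 3914, 719.6 and 1321 CPM in control and 534, 644 and 311 CPM in OA-AP (log2 fold change −1.999, SE 0.63, adjusted p = 0.047), a fall that rested on control replicate 1: without it the log2 fold change was −1.03 (adjusted p = 0.101). The Fasn call was also lost on leaving out any other library except control replicate 2. Scd1, the fatty acid desaturase, went the other way at 16807, 17962 and 13622 CPM in control and 21927, 23437 and 30341 CPM in OA-AP (log2 fold change 0.65, SE 0.21, adjusted p = 0.048), a call lost on leaving out any single control library, without OA-AP replicate 3 and with library totals alone. G6pdx, which supplies NADPH, was at 270.1, 322 and 219 CPM in control and 461, 497 and 570.0 CPM in OA-AP (log2 fold change 0.91, SE 0.17, adjusted p = 0.0063).

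Lipid uptake and lipolysis genes moved in both directions, while the adrenergic genes that were DEGs with all libraries fell. Of 20 fatty acid and lipoprotein uptake genes 6 rose and 3 fell, and of 18 lipolysis and lipid droplet genes 4 rose and 3 fell. Lpl (lipoprotein lipase) was at 10873, 10618 and 10287 CPM in control and 5102, 5682 and 5612 CPM in OA-AP (log2 fold change −0.95, SE 0.15, adjusted p = 0.0036), whereas Acsl4, an acyl-CoA synthetase, was at 37.0, 41.0 and 46.2 CPM in control and 176, 99.9 and 137 CPM in OA-AP (log2 fold change 1.73, SE 0.21, adjusted p = 0.0016). Hilpda, a lipid droplet protein that inhibits lipolysis, was at 5.90, 10.6 and 7.18 CPM in control and 85.9, 30.1 and 116 CPM in OA-AP (log2 fold change 3.30, SE 0.51, adjusted p = 0.0043). The lipases Lipe and Pnpla2 did not pass the test (−0.44 and 0.49 on the log2 scale). Pdk4, a kinase that spares glucose, was at 53.4, 112 and 58.8 CPM in control and 435, 699 and 584 CPM in OA-AP (log2 fold change 2.94, SE 0.34, adjusted p = 0.0016). In the adrenergic list 5 of 23 genes fell and none rose, but 2 rose without control replicate 2 and 2 without OA-AP replicate 2. Adrb3, the beta-3 receptor, was at 1067, 1208 and 1269 CPM in control and 654, 339 and 479 CPM in OA-AP (log2 fold change −1.27, SE 0.24, adjusted p = 0.0069), and Pde3b, the phosphodiesterase through which insulin restrains lipolysis, at 603, 646 and 654 CPM in control and 247, 194 and 233 CPM in OA-AP (log2 fold change −1.497, SE 0.13, adjusted p = 0.00056). Ppargc1a, a coactivator of mitochondrial genes, fell by 2.11 (SE 0.19, adjusted p = 0.00057).

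Several insulin signalling genes fell. In the insulin and IGF list 7 of 30 genes fell and 3 rose, and in the PI3K, Akt and mTOR list 4 of 32 fell and 1 rose. Neither share of the PI3K, Akt and mTOR list exceeded the background of 13% downregulated and 12.1% upregulated. The receptor Insr did not pass the test (−0.14, adjusted p = 0.48). Irs1, an insulin receptor substrate, was at 27.8, 28.7 and 34.5 CPM in control and 12.7, 12.8 and 13.3 CPM in OA-AP (log2 fold change −1.23, SE 0.11, adjusted p = 0.00069), and Irs3 fell by 1.36 (SE 0.10, adjusted p = 0.0004). Slc2a4 (GLUT4), the insulin-dependent glucose transporter, was at 239, 134 and 158 CPM in control and 73.7, 61.8 and 60.7 CPM in OA-AP (log2 fold change −1.44, SE 0.22, adjusted p = 0.0035), while Slc2a1 (GLUT1) rose by 1.78 (SE 0.25, adjusted p = 0.0028). Ptpn1, a phosphatase that switches off the insulin receptor, rose by 1.34 (SE 0.13, adjusted p = 0.00077). Akt2, the Akt form prominent in insulin action, was at 338, 403 and 466 CPM in control and 261, 152 and 227 CPM in OA-AP (log2 fold change −0.92, SE 0.22, adjusted p = 0.017), and its call was lost without control replicate 3 (−0.79, adjusted p = 0.059). Akt1 was at 130.01, 129.99 and 142 CPM in control and 169, 154 and 168 CPM in OA-AP and did not reach the fold threshold.

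**Figure D5:**
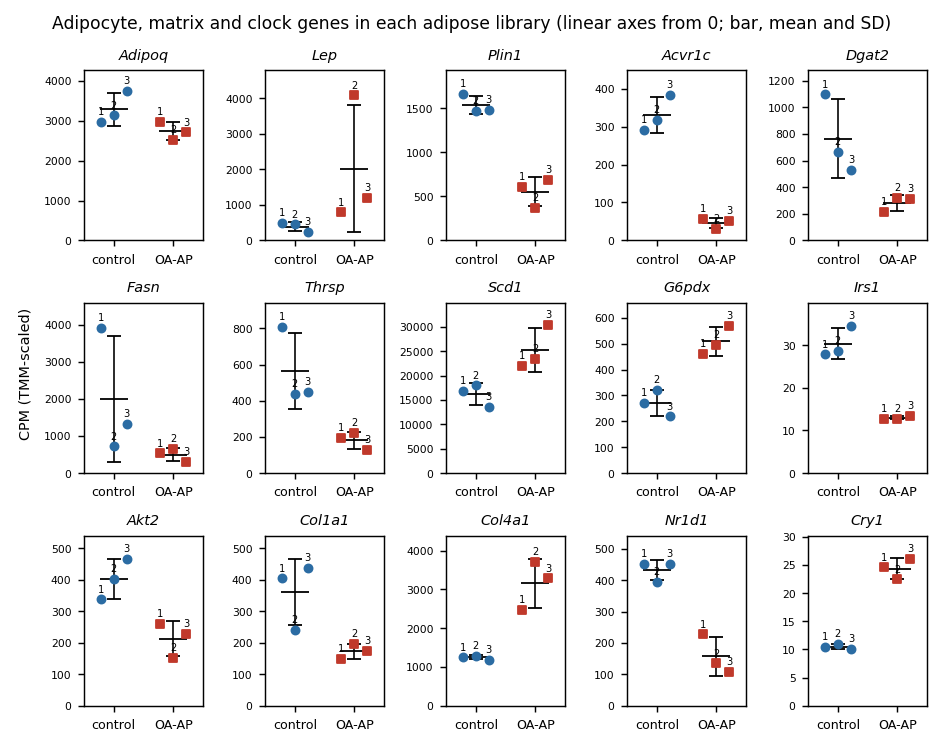
Levels in CPM of 15 adipocyte, lipid, insulin, matrix and clock genes on linear axes from 0, with 1 numbered point per library, control circles beside OA-AP squares, and bars for each group's mean and SD (n = 3). Acvr1c, Plin1, Irs1 and Nr1d1 are lower in every OA-AP library, Col4a1 and Cry1 higher, and Fasn shows control replicate 1 far above the other controls.

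Matrix genes moved in both directions. Of 32 collagen genes and collagen-modifying enzymes 9 rose and 9 fell. The basement membrane chain Col4a1 was at 1251, 1294 and 1190.0 CPM in control and 2469.9, 3714 and 3286 CPM in OA-AP (log2 fold change 1.34, SE 0.18, adjusted p = 0.0022), and Lox, which cross-links collagen, at 65.8, 80.2 and 69.5 CPM in control and 370.3, 867 and 559 CPM in OA-AP (log2 fold change 3.06, SE 0.31, adjusted p = 0.0011). The fibrillar chain Col3a1 was at 1306, 912 and 1255 CPM in control and 597, 717 and 672 CPM in OA-AP (log2 fold change −0.81, SE 0.17, adjusted p = 0.011). Col1a1 fell by 1.07 (SE 0.23, adjusted p = 0.012), a call lost without control replicate 3 (−0.89, adjusted p = 0.05). Col6a5 was at 159.6, 142 and 183 CPM in control and 22.9, 24.8 and 17.5 CPM in OA-AP (log2 fold change −2.90, SE 0.16, adjusted p = 0.00018). Timp1, an inhibitor of matrix metalloproteinases, was at 5.02, 3.81 and 5.11 CPM in control and 278, 172 and 308 CPM in OA-AP (log2 fold change 5.76, SE 0.28, adjusted p = 0.00018), and Timp2 fell by 0.96 (SE 0.18, adjusted p = 0.0067). Of 24 fibroblast progenitor markers 9 fell and 2 rose, and Pdgfra, their common marker, did not pass the test (0.39). Thbs2 (thrombospondin 2) was at 86.1, 91.6 and 79.4 CPM in control and 372, 430.1 and 355 CPM in OA-AP (log2 fold change 2.17, SE 0.12, adjusted p = 0.00018), and Plaur, the urokinase receptor, rose by 1.70 (SE 0.17, adjusted p = 0.00076). Among endothelial markers 4 of 25 rose and 1 fell. Ackr1, a chemokine-binding receptor of venules, was at 6.38, 5.85 and 7.76 CPM in control and 36.6, 17.2 and 28.5 CPM in OA-AP (log2 fold change 2.04, SE 0.28, adjusted p = 0.0026).

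Genes of the EGF receptor family moved in both directions, and many immediate early factors rose. In the EGF list 5 of 15 ligands, receptors and inhibitors rose and 5 fell. Egf itself fell by 0.99 (SE 0.22, adjusted p = 0.012), and the ligand Hbegf rose by 2.17 (SE 0.31, adjusted p = 0.0027). Ereg and Areg, EGF receptor ligands, were almost uncounted in control fat: Ereg was at 0.0738, 0 and 0 CPM in control and 9.80, 8.61 and 39.3 CPM in OA-AP, a ratio of 766 with an exact 95% counting interval of 212 to 6334, and Areg at 0, 0.0424 and 0 CPM in control and 3.11, 0.577 and 9.14 CPM in OA-AP, a ratio of 338 with an interval of 60.2 to 13413. Every OA-AP library lay above every control for both. Their fitted log2 fold changes were 9.31 (SE 1.16, adjusted p = 0.0022) and 7.90 (SE 1.54, adjusted p = 0.0093), and 11.76 for Ereg without control replicate 1 and 9.63 for Areg without control replicate 2, where 0 counts remained in the controls, so that both values depend on the prior count. Of 34 TGF-beta family ligands, receptors and antagonists 8 rose and 8 fell. Fst (follistatin) and Fstl3, which bind activin, rose by 2.25 (SE 0.23, adjusted p = 0.00089) and 2.11 (SE 0.16, adjusted p = 0.0004). Of 28 AP-1 and immediate early genes 14 rose and none fell, and of 25 ERK feedback genes 10 rose and none fell. Junb was at 31.4, 30.0 and 30.2 CPM in control and 209, 128 and 165 CPM in OA-AP (log2 fold change 2.45, SE 0.18, adjusted p = 0.00035), and Fosl1 at 4.06, 4.96 and 4.15 CPM in control and 66.2, 28.8 and 56.2 CPM in OA-AP (log2 fold change 3.52, SE 0.33, adjusted p = 0.00082).

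The clock list leaned downwards. Of 21 genes 8 fell and 2 rose. Hlf, an output factor, was at 24.5, 17.7 and 24.4 CPM in control and 3.94, 4.76 and 4.09 CPM in OA-AP (log2 fold change −2.38, SE 0.17, adjusted p = 0.00035), and the repressor Nr1d2 at 139, 137 and 138 CPM in control and 67.5, 43.3 and 43.7 CPM in OA-AP (log2 fold change −1.42, SE 0.18, adjusted p = 0.0019). Cry1 was at 10.4, 11.02 and 10.04 CPM in control and 24.6, 22.5 and 26.1 CPM in OA-AP (log2 fold change 1.21, SE 0.11, adjusted p = 0.00056), and Nfil3 at 3.84, 3.30 and 2.59 CPM in control and 21.98, 36.8 and 22.5 CPM in OA-AP (log2 fold change 3.06, SE 0.26, adjusted p = 0.00057). Clock and Arntl, the core activators, did not pass the test (0.18 and 0.68). Both groups were sampled at the same hour after injection, and the clock time of sampling is not used here.

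More glucocorticoid, metal and oxidative stress genes rose than fell. Of 23 glucocorticoid response genes 11 rose and 2 fell, with a median of 0.75 that was 0.08 without OA-AP replicate 2, where 5 fell. Fkbp5, a chaperone of the receptor, was at 140.2, 64.4 and 85.2 CPM in control and 510.4, 636 and 364 CPM in OA-AP (log2 fold change 2.38, SE 0.34, adjusted p = 0.003), while Nr3c1, the receptor itself, fell by 0.95 (SE 0.09, adjusted p = 0.0007). The metallothioneins, which bind zinc, stood out: Mt1 was at 369, 204 and 169 CPM in control and 7709, 6941 and 5555 CPM in OA-AP (log2 fold change 4.77, SE 0.36, adjusted p = 0.0004) and Mt2 at 216, 124 and 71.9 CPM in control and 6589, 6084 and 5424 CPM in OA-AP (log2 fold change 5.46, SE 0.44, adjusted p = 0.00054). Slc39a14, a zinc and iron importer, was at 28.0, 27.0 and 23.7 CPM in control and 347, 565 and 321 CPM in OA-AP (log2 fold change 3.97, SE 0.25, adjusted p = 0.00025). Of 35 Nrf2 pathway genes 10 rose and 2 fell, with a median log2 fold change of 0.02. The genes that fell were Ephx1 and Gsta4 (−1.22 and −1.59 on the log2 scale without control replicate 2). Hmox1 (haem oxygenase 1) was at 45.1, 49.5 and 38.1 CPM in control and 227, 244 and 363 CPM in OA-AP (log2 fold change 2.65, SE 0.21, adjusted p = 0.00045), and Txnrd1 (thioredoxin reductase) at 70.8, 75.3 and 80.1 CPM in control and 221, 152 and 175 CPM in OA-AP (log2 fold change 1.28, SE 0.15, adjusted p = 0.0014). Nfe2l2, which encodes Nrf2, did not reach the fold threshold (0.32), nor did its inhibitor Keap1 (0.01).

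Most heat shock genes rose. Of 23 heat shock genes 16 rose and none fell. The promoters of Hspb1 (chr5:135887669-135887968, plus strand) and Hspa1a (chr17:34972107-34972406, minus strand) on GRCm38.p6 are shown, from the same RefSeq table, because they hold the letters GAANNTTC, part of the heat shock element, in capitals. The motif reads the same on both strands:
Hspb1: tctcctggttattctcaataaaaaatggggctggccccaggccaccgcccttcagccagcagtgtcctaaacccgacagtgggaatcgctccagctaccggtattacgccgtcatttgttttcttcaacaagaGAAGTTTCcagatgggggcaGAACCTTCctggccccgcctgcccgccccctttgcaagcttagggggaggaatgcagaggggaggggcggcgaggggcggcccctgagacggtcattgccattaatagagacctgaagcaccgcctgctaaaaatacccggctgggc
Hspa1a: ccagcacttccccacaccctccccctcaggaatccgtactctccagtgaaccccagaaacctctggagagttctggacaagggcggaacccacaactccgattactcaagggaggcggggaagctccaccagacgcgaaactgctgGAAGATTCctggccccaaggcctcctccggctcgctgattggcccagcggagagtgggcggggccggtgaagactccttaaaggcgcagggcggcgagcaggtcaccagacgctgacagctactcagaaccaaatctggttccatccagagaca
These letters occurred in 5.897% of all 14024 promoters and in 12 of 24 promoters matched to the heat shock list. Those 24 promoters belong to 17 of the 23 genes, and the difference between the shares was not tested. Hspb1, a small chaperone, was at 80.8, 83.8 and 78.5 CPM in control and 499, 383 and 393 CPM in OA-AP (log2 fold change 2.39, SE 0.14, adjusted p = 0.00018). Hspa1a was at 2.47, 2.20 and 2.72 CPM in control and 5.55, 4.13 and 5.56 CPM in OA-AP (log2 fold change 1.04, SE 0.20, adjusted p = 0.0077), and since reads may be split with its near-identical copy Hspa1b its value is uncertain. Hspa5, the main chaperone of the endoplasmic reticulum, was at 303, 389 and 327 CPM in control and 724, 722 and 1078 CPM in OA-AP (log2 fold change 1.31, SE 0.20, adjusted p = 0.0032), in a list where 10 of 26 rose and none fell. Xbp1, a factor of the unfolded protein response, was at 245, 322 and 341 CPM in control and 1290.4, 746 and 1117 CPM in OA-AP (log2 fold change 1.80, SE 0.23, adjusted p = 0.002). Ddit3 (CHOP) did not pass the test (0.12, adjusted p = 0.5).

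Genes for making ribosomes rose, while no listed oxidative phosphorylation gene was a DEG. Of 34 ribosome biogenesis genes 29 rose and none fell, with a median log2 fold change of 1.14. Nop58, which guides rRNA modification, was at 22.8, 28.9 and 24.6 CPM in control and 98.1, 73.0 and 84.6 CPM in OA-AP (log2 fold change 1.74, SE 0.14, adjusted p = 0.00047), and Nop16 at 14.4, 14.4 and 13.7 CPM in control and 51.4, 40.0 and 48.5 CPM in OA-AP (log2 fold change 1.72, SE 0.12, adjusted p = 0.00027). Of 76 ribosomal protein genes 4 rose, and 16 without OA-AP replicate 2. None of 74 nuclear oxidative phosphorylation genes and none of 13 mitochondrially encoded genes was a DEG in edgeR. At an unadjusted p below 0.05 edgeR gave 12 of the nuclear genes and 2 of the mitochondrial ones, and DESeq2 called 0 and 1. Hif1a, the hypoxia factor, was at 84.2, 95.2 and 82.4 CPM in control and 188, 215 and 209.9 CPM in OA-AP (log2 fold change 1.23, SE 0.10, adjusted p = 0.00054), whereas Pfkfb3, a glycolytic regulator, was at 972, 1588 and 1285 CPM in control and 439, 335 and 509 CPM in OA-AP (log2 fold change −1.58, SE 0.23, adjusted p = 0.0028).

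In the apoptosis and necroptosis list more genes rose than fell, and the lipid mediator lists held few DEGs in either direction. Of 33 apoptosis and necroptosis genes 9 rose (27.3%) and 3 fell (9.1%), and 6 fell without OA-AP replicate 2. Those that fell were Casp9, Bbc3 and Hrk (−0.63, −1.48 and −2.95 on the log2 scale without control replicate 2). Of 27 prostaglandin and leukotriene genes 4 rose (14.8%) and 5 fell (18.5%). Of 25 ceramide and sphingolipid enzymes 4 rose (16%) and 1 fell (4%). The background over all tested genes was 12.1% upregulated and 13% downregulated. Casp4 (caspase-11) was at 14.4, 16.8 and 15.4 CPM in control and 62.7, 56.3 and 49.3 CPM in OA-AP (log2 fold change 1.86, SE 0.12, adjusted p = 0.00025), and Ripk3, the necroptosis kinase, rose by 1.21 (SE 0.14, adjusted p = 0.0014). Bax rose by 0.86 (SE 0.09, adjusted p = 0.0011), and Bcl2 by 0.62 (SE 0.12, adjusted p = 0.0073), the latter call being lost with library totals alone and without control replicate 1 or OA-AP replicate 2. Sphk1, which makes sphingosine 1-phosphate, was at 4.35, 2.92 and 2.08 CPM in control and 59.0, 82.3 and 45.5 CPM in OA-AP (log2 fold change 4.32, SE 0.34, adjusted p = 0.00056), and Cers6, a ceramide synthase, at 42.3, 40.5 and 40.5 CPM in control and 428, 301 and 366 CPM in OA-AP (log2 fold change 3.15, SE 0.15, adjusted p = 0.00018). Ptgs2 (cyclooxygenase 2) was at 1.96, 0.975 and 2.11 CPM in control and 22.9, 12.5 and 9.65 CPM in OA-AP (log2 fold change 3.14, SE 0.42, adjusted p = 0.0025). Of 15 alcohol and acetaldehyde genes 1 rose, Aldh1a3, and none fell. Among 18 tested common reference genes, Actb rose by 1.02 (SE 0.16, adjusted p = 0.0032) and Pgk1 by 0.70 (SE 0.13, adjusted p = 0.0076), the latter not with library totals alone.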

How the data were processed

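Per the labels and the study's methods, the authors trimmed the reads with Trim Galore 0.6.6, checked quality with fastp 0.20.1, mapped them to GRCm38 with STAR and assigned them to genes with featureCounts 2.0.1, and deposited whole-number counts per gene and library without normalization. The strand setting and the annotation release are not given in the sources used here, so antisense and overlapping genes cannot be told apart. Gene coordinates were taken from GENCODE M21, which lists 45229 of the 46078 genes in the table.

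From the deposited counts, genes were filtered with filterByExpr (15839 of 27409 genes with any count passed), scaled by TMM factors and tested in edgeR 4.0.16 (R 4.3.3) with robust quasi-likelihood fits of the 6 adipose libraries, OA-AP against control, without covariates. Standard errors came from the F statistic and the fitted fold change. Pancreas libraries entered only the check of acinar transcripts. Depth, 20825177 to 27928097 counts per library, limits low genes, and counting intervals and floors cover counting error only. Chi-square per degree of freedom between replicates was at least 30.0, so no pair of replicates agreed within sampling noise. Gene lists were described by counts and medians. The members, the gene lists and the tests were chosen with earlier results of these data known. Named genes included the 10 largest increases and decreases. These were drawn only from DEGs whose groups did not overlap and whose average level reached 3 on the log2 CPM scale. Also named were, for each list, its first 3 genes and up to 4 increased and 4 decreased genes with the smallest p. The genes the study names and the 10 most counted genes were added, and a part of all these named genes is printed. Genes shown only in plots were chosen after their values were seen. On simulated counts for 15592 genes, 62 of 97 genes changed by 1 and 95 of 96 changed by 2 on the log2 scale were found, with 8 false calls. The simulation gave all genes the same dispersion, changed only 200 genes and held no outlying library. It checks the code and does not measure power or false calls in these data. DESeq2 1.42.0, other scalings and filters, a replicate block and leaving out each library were tried as alternatives. Replicate numbers did not pair the libraries: deviations of same-numbered libraries correlated at −0.006, 0.056 and −0.163.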

Additional observations from a re-analysis of the deposited data

How the results depend on the processing

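Of 496 named genes, 384 were DEGs, and 283 of these kept their call in every setting tried; none of the DEGs changed sign. The total of 3981 DEGs (1915 up, 2066 down) was 4086 with DESeq2, 3968 with DESeq2 size factors, 3980 without the acinar genes in the scaling, 3971 without the filter on low counts and 3440 with at least 10 counts in every library. By library totals only it was 4250, of which 1365 rose and 2885 fell. A fold change of at least 2 left 2228 (1001 up, 1227 down), and no fold threshold gave 5835, of which 3065 rose, both by construction. Leaving out each library in turn gave 2865 to 4476 DEGs (1557 to 2141 up, 1308 to 2335 down). Without control replicate 3 there were 1308 downregulated DEGs, the lowest, where fewer libraries were fitted, and without control replicate 2 there were 3564. With the replicate number as a block the count was 3477, 3365 of them shared; since the numbers do not pair the libraries, calls lost under the block are not read as weaker effects. Shares of marker lists cannot pass 0.05 with 3 libraries a group, and levels below about 1 CPM rest on few counts.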

Other observations

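Several gene groups outside the comparisons above held named changes. Among P450 and xenobiotic enzymes, 3 of 26 rose and 7 fell. Cyp1b1 was at 68.9, 65.8 and 69.5 CPM in control and 133, 133 and 144 CPM in OA-AP (log2 fold change 1.01, SE 0.08, adjusted p = 0.0005), and Cyp7b1, which hydroxylates oxysterols, at 1.18, 0.890 and 0.953 CPM in control and 5.18, 5.77 and 6.72 CPM in OA-AP (log2 fold change 2.54, SE 0.22, adjusted p = 0.00054). The glutathione transferases Gstt1 and Gstt3 fell by 1.29 (SE 0.15, adjusted p = 0.0013) and 1.58 (SE 0.15, adjusted p = 0.00077). In the branched-chain amino acid list of 23 genes 1 rose and 1 fell, and Bcat1, the cytosolic aminotransferase, was at 3.47, 3.30 and 1.63 CPM in control and 14.4, 16.3 and 14.1 CPM in OA-AP (log2 fold change 2.42, SE 0.28, adjusted p = 0.0014).

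In the lysosome and autophagy list 3 of 30 genes rose and none fell. Ctsl (cathepsin L) was at 317, 369 and 303 CPM in control and 519, 752 and 593 CPM in OA-AP (log2 fold change 0.91, SE 0.17, adjusted p = 0.0063), and Vmp1, needed to form autophagosomes, at 158, 134 and 138 CPM in control and 278, 322 and 253 CPM in OA-AP (log2 fold change 0.99, SE 0.13, adjusted p = 0.0019). Of 31 proliferation genes 1 rose and 2 fell, and Mki67, a marker of cycling cells, was at 6.86, 9.62 and 4.90 CPM in control and 1.81, 6.78 and 3.43 CPM in OA-AP and did not pass the test, except without OA-AP replicate 2 (−1.43, adjusted p = 0.031).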
